A study of Caenorhabditis elegans with 15 samples.

Results

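Loss of the receptor sma-6 was set against loss of the Smad sma-3 in whole Caenorhabditis elegans larvae of the L2 stage. The 5 libraries labelled sma-6 and the 5 labelled sma-3 were compared with each other, 10 of the 15 libraries of the series, and they were chosen by the genotype in their labels alone. The other 5 libraries came from the wild-type strain N2, entered no test, and are given only as the level of a transcript without either mutation. All animals were kept on agar plates with Escherichia coli as food, and poly-A RNA was made into strand-specific libraries. The alleles, the number of strains behind each genotype and the number of cultures are not given in the sources used here. The p-values therefore measure the spread between these libraries, which may be technical, and any other difference between the strains is part of the comparison.

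The DBL-1 pathway is the bone morphogenetic protein pathway of this nematode. The ligand DBL-1, made largely by neurons, is bound by the type II receptor DAF-4 and the type I receptor SMA-6. The activated receptor phosphorylates the Smad proteins SMA-2 and SMA-3, which join the co-Smad SMA-4 and enter the nucleus, with the epidermis as a main site of action. Animals that lack SMA-6 or SMA-3 are small, and the pathway is also known for its part in cuticle collagen expression, fat storage and defence against microbes. Receptor and Smad stand in the same chain, so the comparison asks which transcripts tell the loss of the first from the loss of the second.

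Library totals ran from 19.7 to 22.4 M counts in sma-6 and from 16.9 to 24.2 M in sma-3 mutants, so that 3 counts correspond to between 0.121 and 0.179 CPM. CPM are counts scaled to the size and composition of the library by TMM factors. The first principal component of the 10 libraries held 37% of the variance and separated the genotypes, with sma-3 libraries between -22.94 and -15.44 and sma-6 libraries between 14.36 and 28.07. No pair of replicates agreed within sampling noise, with chi-square values per degree of freedom from 7.26 to 28. Genes that mark muscle (unc-54), neurons (rab-3), intestine (ges-1) and epidermis (dpy-7) were present in every mutant library. Each label ended in a number after the letter S, whose meaning is not given. Each genotype had its own block of these numbers, so whatever they stand for cannot be told apart from genotype. Among the wild-type libraries N2 replicate 5 stood apart, with H36L18.2 for example at 11.4 CPM against 42.2 to 66.4 CPM, and list values relative to N2 are also given without it. N2 replicate 3 stood apart in oocyte and yolk genes, with a mean log2 level of the vitellogenins of 5.671 against -0.293 to 1.004 in the other N2 libraries.

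Each mutated transcript was low in its own mutant. The sma-3 transcript (WBcel235 chromosome III, 6860974 to 6863968) measured 24.3, 25.6, 22.2, 25.1 and 21.8 CPM in the sma-6 libraries. In the sma-3 libraries it measured 10.3, 9.66, 11, 10.4 and 9.01 CPM. The groups did not overlap. The log2 difference, here and below sma-6 minus sma-3, was 1.24 (standard error 0.0816, edgeR adjusted p = 5.37e-07). The sma-6 transcript (chromosome II, 6324484 to 6327355) measured 8.84, 9.20, 9.83, 9.34 and 9.75 CPM in sma-6 mutants, below every sma-3 library. The sma-3 libraries held 23.5, 24.3, 25.5, 27.6 and 25.5 CPM of it, and the N2 mean was 42.9 ± 3.97 CPM (SD, n = 5). Its log2 difference was -1.43 (standard error 0.0734, edgeR adjusted p = 2.80e-08). The receptor transcript in Smad mutants thus lay between the receptor mutants and the wild type in all 5 libraries.

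Outside the mutated genes, the transcripts of the pathway differed little between the mutants. All 21 genes listed for the DBL-1 pathway were tested, of which 3 were called higher and 3 lower in sma-6 mutants, and the calls include both mutated genes. Over the whole transcriptome, the quasi-likelihood test of edgeR, adjusted after Benjamini and Hochberg, called 22.6% of the genes at an adjusted p under 0.05, 11.2% higher and 11.4% lower, so the share among the pathway genes was near that background. The pathway median was -0.021 on the log2 scale, against -0.007 for all genes tested.

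Among the ligand side and the receptors, dbl-1 itself averaged 29.3 CPM in sma-6 and 30.3 CPM in sma-3 mutants, with a log2 difference of -0.044. The type II receptor daf-4 averaged 75.8 and 73.9 CPM, with a log2 difference of 0.036, and neither gene was called. adt-2, a secreted metalloprotease that acts on body size through this pathway, measured 181, 175, 177, 173 and 171 CPM in sma-6 mutants. In sma-3 mutants adt-2 measured 150, 144, 152, 139 and 154 CPM, without overlap (log2 difference 0.25, standard error 0.0499, edgeR adjusted p = 0.00354). The netrin receptor gene unc-40, also known to modulate the pathway, was slightly lower in sma-6 mutants, at 147 against 165 CPM on average (log2 difference -0.17, edgeR adjusted p = 0.0270).

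Of the Smads, the co-Smad sma-4 was higher in sma-6 mutants, at 51.0, 55.1, 55.0, 58.9 and 57.0 CPM against 41.2, 44.6, 52.2, 45.6 and 45.3 CPM. The groups overlapped at the 52.2 CPM of sma-3 replicate 4 (log2 difference 0.27, standard error 0.0683, edgeR adjusted p = 0.0115). The partner Smad sma-2 was not called (9.69 against 11.6 CPM, log2 difference -0.26, edgeR adjusted p = 0.0956), and both mutants lay below its N2 mean of 18.5 CPM.

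lon-1 encodes a secreted protein that limits body length and is a known target repressed by the pathway. It measured 180, 171, 174, 172 and 165 CPM in sma-6 mutants and 228, 186, 193, 189 and 194 CPM in sma-3 mutants, all above the N2 libraries at 105 to 138 CPM. The direct log2 difference was -0.20 (standard error 0.0621, edgeR adjusted p = 0.0327). It did not pass without sma-3 replicate 2, the library at 228 CPM, nor without sma-6 replicate 2, 3 or 6, where the adjusted p under these and 4 other settings lay between 0.0544 and 1. The call of unc-40 was lost in 5 of the fits without a library and that of sma-4 in none of them, although sma-4 did not pass with library totals as the only scaling.

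A separate TGF-beta pathway controls entry into the dauer stage. The list tested held 8 genes of this pathway and of the steroid hormone signalling that acts after it. Of these 1 was higher and 1 lower (12.5% each), near the 11.2% and 11.4% of all genes. daf-9, a cytochrome P450 that makes the dafachronic acid hormones, was higher in sma-6 mutants, at 16.1 against 8.14 CPM on average (log2 difference 0.98, edgeR adjusted p = 7.33e-04). The ligand gene daf-7 was lower, at 67.1 against 83.5 CPM (log2 difference -0.32, edgeR adjusted p = 0.0300). The other 6 were not called, among them the receptor daf-1 (log2 difference 0.030) and the hormone receptor daf-12 (0.091).

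Across all 13557 genes tested, 3058 were called, 1515 with more and 1543 with less transcript in receptor mutants. The first made up 49.5% of the calls, or 36.8% with library totals as the only scaling, which moved the median of all genes to -0.052. Most differences were small: the median size of a called difference was 0.401 on the log2 scale, and 218 genes differed by 2-fold or more, 120 of them up and 98 down in sma-6 mutants. In 2213 genes, 16.3% of those tested, the ranges of the genotypes were apart (7.91% with all sma-6 libraries above and 8.42% with all below), and 2018 of these were called.

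**Figure D1:**
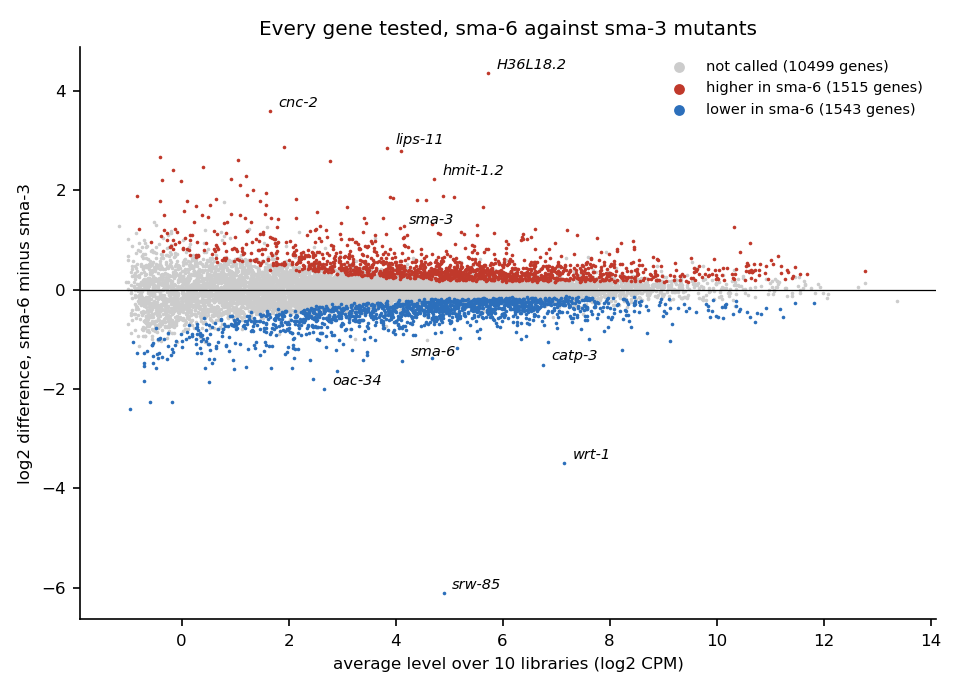
Each point is a gene, with its average level over the 10 mutant libraries (log2 CPM, horizontal) and its log2 difference, sma-6 minus sma-3 (vertical), coloured by the call of edgeR's test at an adjusted p under 0.05. The 1515 higher and 1543 lower genes lie mostly within 1 log2 unit of zero, with srw-85 at -6.11 and H36L18.2 at 4.36 as the outermost labelled genes.

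The largest differences concerned single genes of several kinds. With the average level held to at least 1 on the log2 CPM scale and no overlap between the genotypes, the deepest gap was in srw-85 (chromosome V, 19429387 to 19431136), a serpentine chemoreceptor gene of the srw class. It measured 0.847, 0.729, 0.617, 0.760 and 1.25 CPM in sma-6 mutants, from 12 to 26 counts per library. The sma-3 libraries held 52.8, 53.2, 62.5, 61.6 and 62.1 CPM. The difference of -6.11 (standard error 0.133, edgeR adjusted p = 1.69e-12), or 69.0-fold, set sma-6 mutants apart from every other library, since N2 held 35.3 to 42 CPM. Only 74 of 520 listed chemoreceptor genes were abundant enough to test, and 3 were higher and 3 lower. These shares, 4.05% each, lay below the 11.2% and 11.4% of all genes. The 3 higher calls became 0 in at least 1 fit without a library. The other 2 lower calls, named to complete the count, were sri-40 (-0.71) and srr-1 (-0.45).

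wrt-1 (chromosome II, 7530996 to 7533246), a warthog gene of the hedgehog-related family expressed in larval epidermis, came next. It measured 25.2, 21.6, 28.8, 16.9 and 23.6 CPM in sma-6 mutants and 274, 226, 254, 236 and 308 CPM in sma-3 mutants. The gap was 11.2-fold (log2 difference -3.49, standard error 0.130, edgeR adjusted p = 1.45e-09), and the N2 libraries, at 168 to 341 CPM, were on the side of the Smad mutants. Both srw-85 and wrt-1 therefore marked the sma-6 libraries against the rest of the series.

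oac-34, a predicted O-acyltransferase, measured 3.76, 2.1, 1.90, 2.33 and 2.27 CPM in sma-6 mutants and 10.1, 7.87, 11.8, 8.39 and 11.2 CPM in sma-3 mutants. Its log2 difference was -2.01 (edgeR adjusted p = 1.09e-05). Here it was sma-3 that stood away, because 4 of the N2 libraries held 2.32 to 3.47 CPM, and N2 replicate 5 held 6.81 CPM. The groundhog gene grd-11, another hedgehog relative, measured 4.50, 3.14, 2.21, 2.73 and 5.31 CPM against 8.98, 10.3, 14.1, 11.8 and 10.4 CPM (log2 difference -1.64, edgeR adjusted p = 1.65e-04). catp-3, a P-type cation-transporting ATPase gene, measured 48.3, 52.6, 30.1, 89.8 and 59.9 CPM against 96.2, 152, 130, 280 and 142 CPM (log2 difference -1.51, edgeR adjusted p = 0.00227). C30B5.6 (-1.80), nspb-8 (-1.58), the F-box gene fbxa-136 and C45B2.8 (-1.55) made up the rest of the 10, beside sma-6 itself.

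In the other direction the largest gap was in H36L18.2 (chromosome X, 12652591 to 12653520), a lincRNA in the annotation. It measured 56.5, 82.0, 197, 56.8 and 114 CPM in sma-6 mutants and 5.83, 4.29, 5.37, 5.08 and 4.05 CPM in sma-3 mutants. The difference was 20.5-fold (log2 difference 4.36, standard error 0.339, edgeR adjusted p = 3.11e-06). The N2 libraries held 53.1, 48.9, 66.4, 42.2 and, in replicate 5, 11.4 CPM, so the sma-3 libraries lay below all of them. The sma-6 mean of 101 CPM was also above the N2 mean of 44.4 CPM, with overlap between their libraries. The same order of group means, with N2 replicate 5 beside the Smad mutants, was seen in F46G11.6, nspc-10, hsd-3, inx-9 and ins-4.

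F46G11.6 measured 6.4, 6.42, 8.59, 4.61 and 6.81 CPM in sma-6 mutants against 1.2, 0.835, 1.13, 0.318 and 0.949 CPM in sma-3 mutants, with N2 at 3.79 to 5.48 CPM in 4 libraries and 0.948 CPM in replicate 5 (log2 difference 2.87, edgeR adjusted p = 9.46e-06). inx-9, an innexin that forms gap junctions of the somatic gonad with the germ line, measured 3.23, 4.6, 5.56, 2.33 and 3.86 CPM against 0.382, 1.79, 0.889, 0.907 and 0.992 CPM (log2 difference 2.00, standard error 0.310, edgeR adjusted p = 7.02e-04). N2 held 2.16 to 3.42 CPM of inx-9 in 4 libraries and 0.592 CPM in replicate 5. The insulin-like peptide gene ins-4 averaged 4.59 ± 1.05 CPM in sma-6 and 1.23 ± 0.565 CPM in sma-3 mutants (SD, n = 5; log2 difference 1.93, edgeR adjusted p = 3.41e-04). nspc-10, of a nematode-specific peptide family, and hsd-3, a hydroxysteroid dehydrogenase homolog, differed by 2.6 and 2.29 on the log2 scale.

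In a second set every sma-6 library lay above every N2 library. cnc-2 (chromosome V, 1449665 to 1450183) encodes a caenacin, an antimicrobial peptide of the epidermis whose induction by fungal infection is known to depend on DBL-1. It measured 5.66, 4.87, 6.33, 2.1 and 9.75 CPM in sma-6 mutants and 0.621, 0.298, 0.525, 0.499 and 0.388 CPM in sma-3 mutants, with N2 between 0.674 and 1.66 CPM. The difference was 12-fold (log2 difference 3.58, standard error 0.378, edgeR adjusted p = 4.94e-05). Receptor mutants thus lay above and Smad mutants below the wild-type libraries.

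The lipase-related gene lips-11 measured 56.4, 15.2, 19.4, 21.8 and 13.8 CPM in sma-6 mutants against 3.82, 2.03, 6.10, 2.5 and 2.72 CPM in sma-3 mutants, with N2 at 1.95 to 4.39 CPM (log2 difference 2.85, edgeR adjusted p = 3.84e-04). far-3, a fatty acid and retinol binding protein gene, measured 22.5, 18.9, 45.9, 13 and 50.3 CPM against 7.98, 1.91, 1.82, 1.72 and 8.2 CPM (log2 difference 2.79, edgeR adjusted p = 0.00145). hmit-1.2, a proton-coupled myo-inositol transporter gene, measured 29.6, 44.1, 49.1, 55.8 and 37.6 CPM against 6.26, 11.3, 6.75, 11.9 and 10.5 CPM, with N2 between them at 14.9 to 29.3 CPM (log2 difference 2.21, edgeR adjusted p = 1.09e-05).

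**Figure D2:**
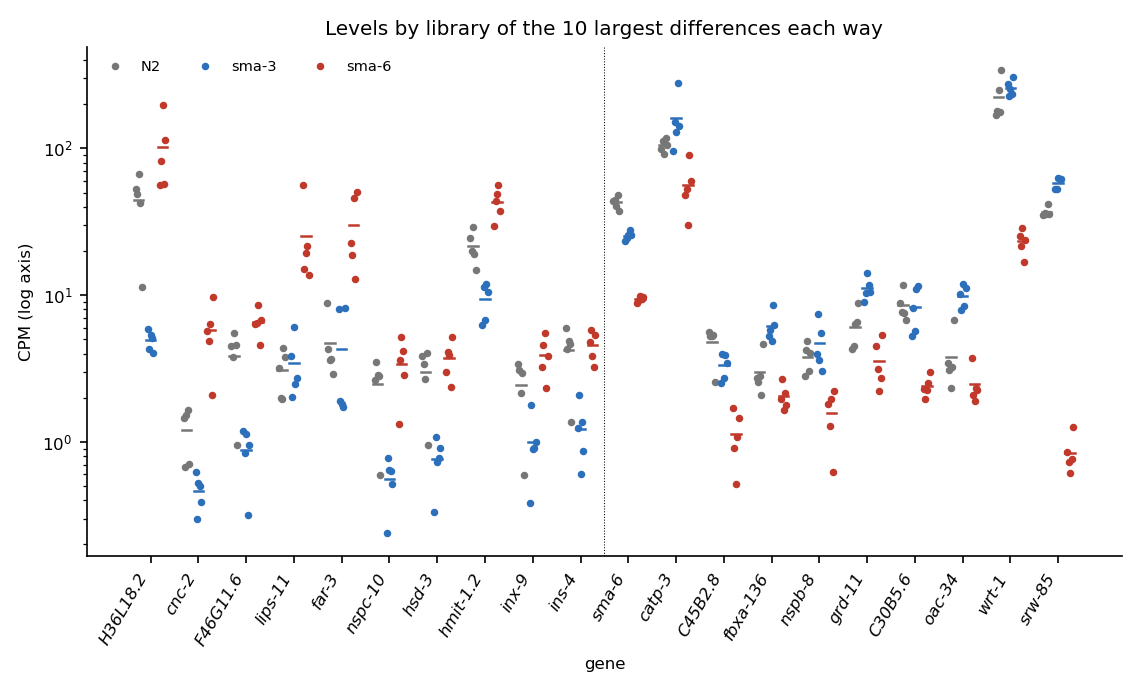
Points show the level of each gene in each library (CPM, log axis) for the 10 largest differences in each direction under the stated limits, with N2 in grey, sma-3 in blue and sma-6 in red, and short bars at the group means. Left of the dotted line all sma-6 points lie above all sma-3 points, right of it below. In H36L18.2, F46G11.6, nspc-10, hsd-3, inx-9 and ins-4 the lowest grey point is N2 replicate 5.

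By function, the genes lower in sma-6 mutants were led by the cuticle and the secreted proteins of the epidermis. The cuticle is the collagen exoskeleton that the epidermis rebuilds at each molt. The deposited table held 153 cuticle collagen genes. Of the 114 tested, 46 were lower and 6 higher in sma-6 mutants, 40.4% and 5.26% against 11.4% and 11.2% of all genes. Their median log2 difference was -0.282, and their summed level was 24780 to 29650 CPM in the sma-6 and 30890 to 35520 CPM in the sma-3 libraries, without overlap. Smad mutants lay above N2 in the median collagen (0.175) and receptor mutants slightly below it (-0.075), with 0.207 and -0.084 when N2 replicate 5 was left out.

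rol-6, a collagen whose mutations make animals roll, measured 722, 688, 824, 764 and 817 CPM in sma-6 mutants against 1198, 1054, 1038, 1053 and 1224 CPM in sma-3 mutants (log2 difference -0.55, standard error 0.073, edgeR adjusted p = 2.78e-04). Of the other collagens known for body shape phenotypes, sqt-3 averaged 1443 against 2011 CPM (-0.48), dpy-13 1303 against 2043 CPM (-0.65) and dpy-5 1275 against 1868 CPM (-0.55 on the log2 scale). These 3 were picked after their values were seen and do not stand for the list. Among the opposite calls the smallest p belonged to col-98, at 388 ± 60.7 against 203 ± 20.1 CPM (SD, n = 5; log2 difference 0.94, edgeR adjusted p = 6.53e-05), with N2 at 254 to 287 CPM in 4 libraries and 128 CPM in replicate 5.

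Cuticlins are the other structural proteins of the cuticle, with zona pellucida domains. Of 30 tested 13 were lower and 0 higher, with a median of -0.406 on the log2 scale. cut-4 measured 12.2, 12, 11.3, 12.2 and 13.9 CPM against 19.1, 21.2, 23.9, 25.8 and 23.9 CPM (log2 difference -0.89, edgeR adjusted p = 4.62e-05), and cutl-5 averaged 5.95 against 10.5 CPM (-0.81). Astacins are secreted metalloproteases, several of which process cuticle proteins, and 13 of 29 tested were lower and 1 higher (median -0.304). nas-14 measured 35, 32, 35.1, 39 and 34.4 CPM against 60.7, 56.7, 62.1, 57.0 and 66.5 CPM (log2 difference -0.79, edgeR adjusted p = 8.27e-06). The single astacin higher in sma-6 mutants was dpy-31, the procollagen C-proteinase, at 87.5 against 73.0 CPM (log2 difference 0.26), and it was named after its value was seen.

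Hedgehog-related proteins are secreted, lack a true hedgehog ortholog among them, and are made in good part by the epidermis. Of 41 tested 20 were lower and 2 higher in sma-6 mutants (median -0.378). wrt-6 measured 35.2, 30.8, 36.3, 29.1 and 31.9 CPM against 62.2, 51.8, 58.1, 52.8 and 66.9 CPM (log2 difference -0.84, edgeR adjusted p = 4.02e-05), and wrt-1 and grd-11 have been described above. The mean log2 level of the list per library relative to the N2 mean lay between 0.196 and 0.247 in sma-3 mutants and between -0.266 and -0.126 in sma-6 mutants. Single N2 libraries ranged from -0.195 to 0.338, and without N2 replicate 5 the median gene of the list was at 0.317 in the Smad mutants and at 0.014 in the receptor mutants. Among the patched-related membrane proteins 7 of 25 were lower, with ptr-16 at 78.0 against 114 CPM and ptr-1 at 72.3 against 101 CPM (log2 differences -0.54 and -0.49). The 1 higher member was ptr-22 (log2 difference 1.45), named after its value was seen.

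Of 28 molting-cycle genes outside these families 4 were higher (14.3%) and 5 lower (17.9%), near the 11.2% and 11.4% of all genes (median 0.059). The nuclear receptor nhr-23, which drives the molting cycle, was higher in sma-6 mutants, at 80.8 ± 4.51 against 56.7 ± 4.77 CPM (SD, n = 5; log2 difference 0.51, edgeR adjusted p = 2.29e-04). The lipocalin-related lpr-7 was lower, at 31.9 ± 1.94 against 52.3 ± 3.40 CPM (SD, n = 5; log2 difference -0.72, edgeR adjusted p = 1.61e-05). Cuticle genes cycle with the molt. With the mean log2 level of these 28 genes per library as a covariate (molting score), the cuticle collagens counted 49 lower and 11 higher. The cuticlins then counted 15 lower and 0 higher. The members of the score were called in both directions, so it need not follow the phase of the molt. Whether molt timing differed was not tested. Exact larval age in the libraries was not measured. Of the enzymes that process and crosslink collagen 2 of 13 were higher and 2 lower. These were phy-2 and dpy-31, higher, and the dual oxidase bli-3 and the peroxidase mlt-7, lower, and phy-2 lies in a run of neighbouring genes described below.

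**Figure D3:**
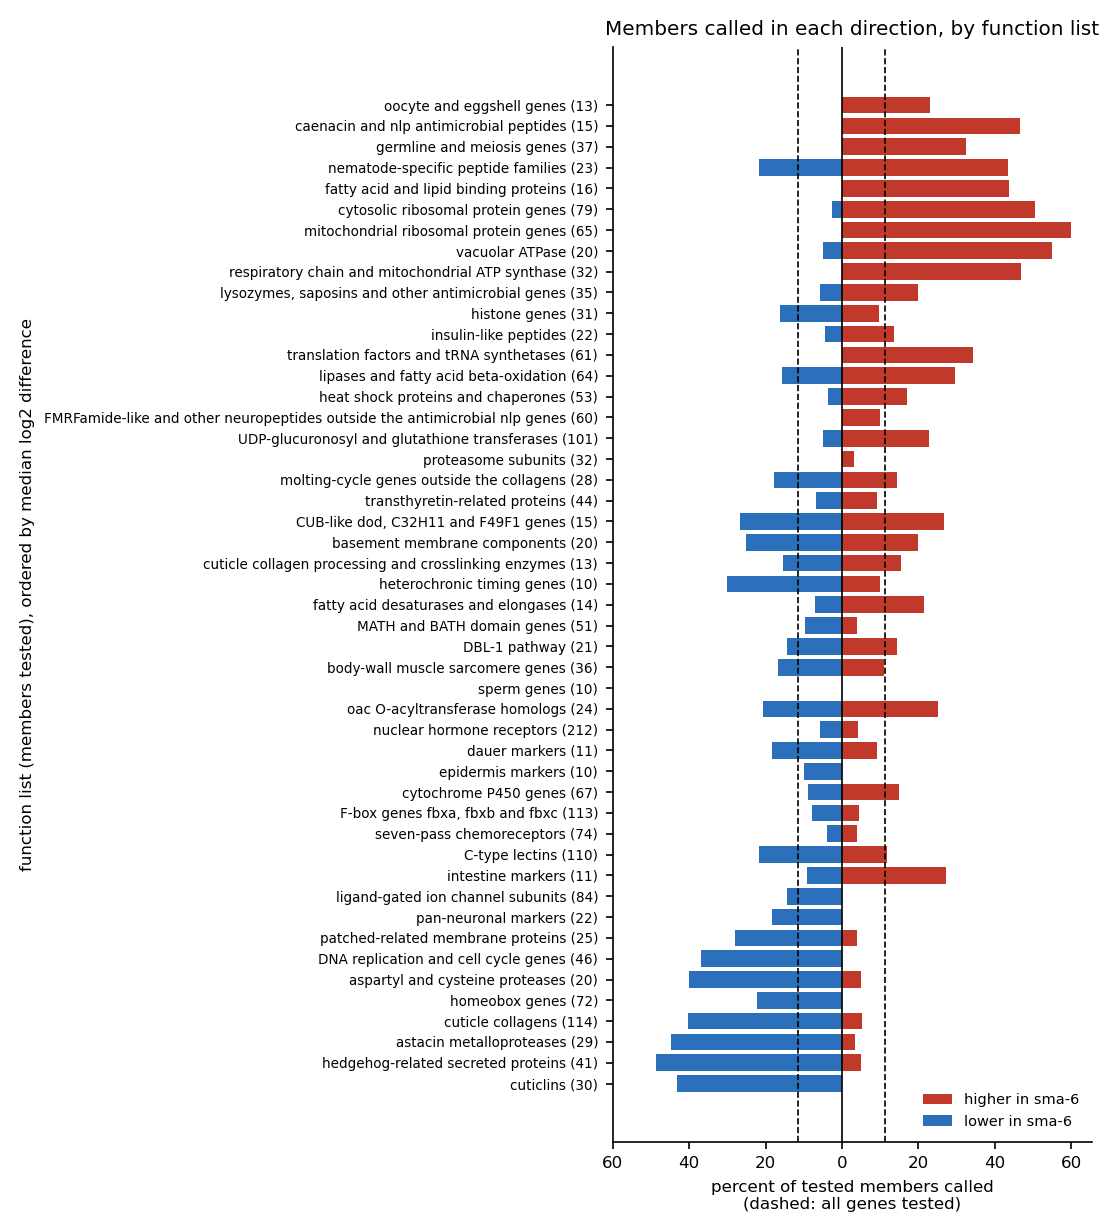
Bars give the percent of tested members called higher (red, right) and lower (blue, left) in sma-6 mutants for each function list with at least 10 tested members, ordered by the median log2 difference, with the number tested in parentheses. Dashed lines mark the 11.2% and 11.4% of all genes. Cuticlins, hedgehog-related proteins, astacins and cuticle collagens reach furthest to the left, and the mitochondrial and cytosolic ribosome and the vacuolar ATPase furthest to the right.

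The genes higher in sma-6 mutants were led by the machinery of protein synthesis and mitochondria. Of 79 cytosolic ribosomal protein genes tested 40 were higher and 2 lower, 50.6% and 2.53%, with a median of 0.276 on the log2 scale. Their summed level was 145100 to 162300 CPM in the sma-6 and 113100 to 144800 CPM in the sma-3 libraries. N2 libraries, at 138800 to 163500 CPM, overlapped the receptor mutants, and in 38 of the 42 called members the N2 mean was nearer to sma-6 (39 without N2 replicate 5). The low level was therefore on the side of the Smad mutants.

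rps-16, a small-subunit protein gene, measured 1990, 1997, 1873, 1919 and 1969 CPM in sma-6 mutants against 1487, 1528, 1284, 1306 and 1213 CPM in sma-3 mutants (log2 difference 0.52, standard error 0.072, edgeR adjusted p = 3.42e-04). rpl-34 differed most of the list (log2 difference 1.25) and belongs to the run of neighbouring genes on chromosome IV described below, without which the list counted 39 higher and 2 lower. The 2 lower members, named after their values were seen, were rpl-5, at 2010 against 2644 CPM, and rpl-21, at 1161 against 1560 CPM (log2 differences -0.40 and -0.43).

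Nuclear genes for the mitochondrial ribosome were more uniform. All 65 were tested, all 65 had a positive difference, and 39 were called higher and 0 lower (median 0.236). mrpl-41 measured 54.1, 52, 56.2, 50.5 and 57.0 CPM against 40.8, 36.7, 33.7, 36 and 29.2 CPM (log2 difference 0.61, edgeR adjusted p = 2.38e-04), and mrps-28 averaged 32.2 against 22.3 CPM (0.53). N2 was nearer to sma-6 in 38 of the 39, with or without N2 replicate 5. In the respiratory chain and mitochondrial ATP synthase list 15 of 32 were higher and 0 lower (median 0.184), led by nuo-5 of complex I, at 364 ± 12.5 against 281 ± 16.3 CPM (SD, n = 5; log2 difference 0.37, edgeR adjusted p = 5.96e-04). The vacuolar ATPase, the proton pump of lysosomes and of the excretory and epidermal membranes, had 11 of 20 higher and 1 lower (median 0.187), with vha-7 at 52.2 against 39.2 CPM and vha-3 at 216 against 176 CPM.

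Translation factors and tRNA synthetases had 21 of 61 higher and 0 lower (median 0.133), and N2 was nearer to sma-6 in all 21. The leading members were iff-1, a germline form of the factor eIF5A, at 89.5 ± 14.2 against 47.7 ± 5.28 CPM (SD, n = 5; log2 difference 0.91, edgeR adjusted p = 9.91e-05), and ife-1, a germline cap-binding protein of the eIF4E family, at 113 ± 5.42 against 81.6 ± 4.01 CPM (log2 difference 0.46). Of 32 proteasome subunit genes 1 was higher and 0 lower. Chaperones had 9 of 53 higher and 2 lower. The 9 became 4 with library totals alone and between 2 and 5 in the fits without sma-3 replicate 4 or 9 or sma-6 replicate 2, 3 or 6.

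Transcript length moved with these calls. The median exon length was 1065 bases for genes higher in sma-6 mutants, 1770 for those lower, and 1425.5 for all genes with a length. After a per-library trend on exon length was removed, the cytosolic ribosome counted 28 higher and 5 lower (median 0.115) and the mitochondrial ribosome 24 higher and 0 lower (median 0.192). The cuticle collagens counted 48 lower and 6 higher under the same fit, and the hedgehog-related list 20 lower and 1 higher. What set the difference in length was not tested.

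**Figure D4:**
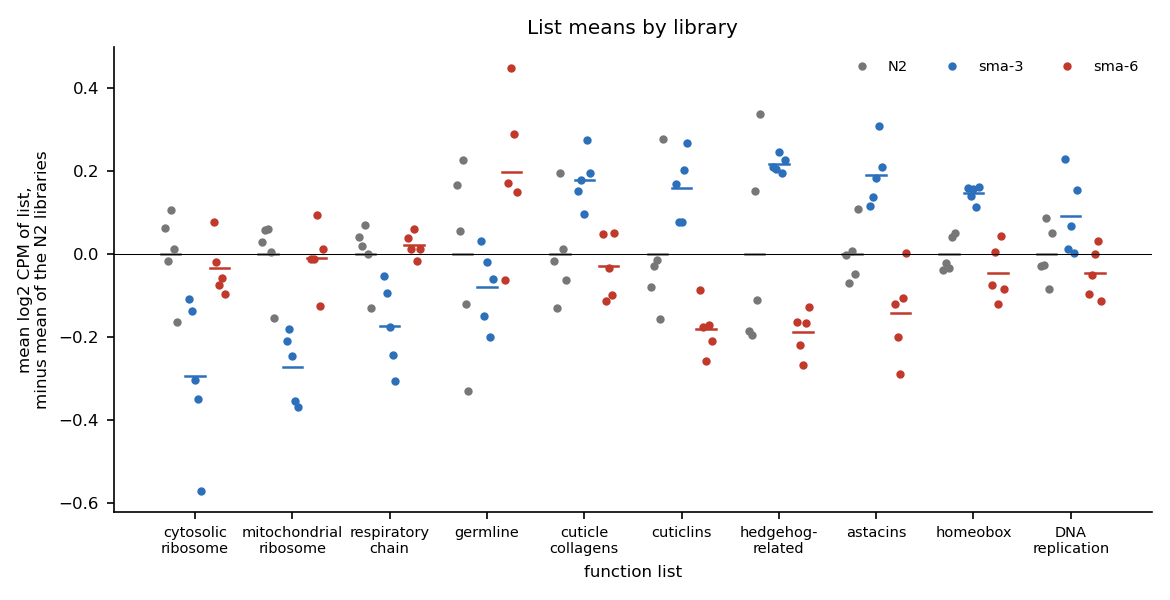
Points give, for each library, the mean log2 CPM over the tested members of a list minus the mean of the 5 N2 libraries, with short bars at the group means. In the ribosome and respiratory lists all sma-3 libraries lie below all sma-6 libraries (cytosolic ribosome -0.569 to -0.109 against -0.097 to 0.078), and the lowest N2 library, replicate 5, lies among the sma-3 libraries in the cytosolic ribosome (-0.163) and respiratory (-0.130) lists. In the cuticle, hedgehog-related, astacin and homeobox lists the sma-3 libraries lie above the sma-6 libraries, the homeobox list at 0.114 to 0.161 against -0.120 to 0.043.

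Of 37 germline and meiosis genes tested 12 were higher in sma-6 mutants and 0 lower (median 0.309), with summed levels of 976 to 1257 CPM against 847.5 to 965.1 CPM. The list's mean log2 level overlapped, at 3.332 to 3.843 in sma-6 and 3.196 to 3.428 in sma-3 libraries, and sma-6 replicate 3 was the highest mutant library in the germline, oocyte and vitellogenin lists (vitellogenin mean log2 level 2.633 against 0.351 or less in the other sma-6 libraries). Leaving out each library in turn, that one included, gave 9 to 17 higher members. pgl-1, a core protein of the germline P granules, measured 81.2, 97.2, 124, 108 and 97.2 CPM against 72.2, 70.1, 67.3, 63.6 and 65.1 CPM (log2 difference 0.59, edgeR adjusted p = 7.86e-04). glh-1, a P granule helicase of the Vasa family, averaged 144 ± 30.8 against 93.0 ± 4.52 CPM (SD, n = 5; log2 difference 0.63, edgeR adjusted p = 0.00204). N2 replicate 5 held 55.8 CPM of pgl-1, below every other library, and the rest of N2 held 72.7 to 97.1 CPM.

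Genes of later gametes had low summed levels in these larvae. Among 13 tested oocyte and eggshell genes 3 were higher (cpg-2, oma-1 and cpg-1) and 0 lower, and their summed level was 59.8 to 84.0 CPM in sma-6 and 45.4 to 62.0 CPM in sma-3 mutants, with N2 at 40.5 to 112.7 CPM. The upper N2 value came from replicate 3, which also held 17.7 CPM of cpg-2 against 2.25 to 4.93 CPM in the other N2 libraries. The eggshell gene perm-2 was at 0.823 CPM or less in the mutant libraries, whereas cbd-1, the other oocyte and eggshell marker, held 8.39 to 19.6 CPM. Of 10 tested sperm genes 0 were called. The cpg-2 call was lost in the fit to all 15 libraries and that of oma-1 in 7 fits without a library. Of the vitellogenins, the yolk proteins of adults, 3 of 6 could be tested and vit-1 was lower, at 3.78 against 7.49 CPM (log2 difference -0.99, edgeR adjusted p = 7.02e-04).

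Nematode-specific peptide genes split by family. Of 23 tested, 10 were higher and all of them nspc genes, and 5 were lower and all of them nspb genes. nspc-9 measured 5.50, 6.01, 7.51, 6.44 and 5.99 CPM against 1.39, 2.92, 2.83, 2.22 and 2.24 CPM (log2 difference 1.44, edgeR adjusted p = 1.26e-04), with 2.19 CPM in N2 replicate 5 and 4.65 to 6.93 CPM in the other N2 libraries. Members of these families are close in sequence, so reads could be shared between them. The 5 lower calls became 2 or 3 in the fits without any of sma-3 replicates 2, 3 and 5 or sma-6 replicates 2, 3 and 4.

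Of 46 DNA replication and cell cycle genes 17 were lower in sma-6 mutants and 0 higher (median -0.182). The ribonucleotide reductase gene rnr-1, which supplies deoxynucleotides for S phase, measured 140, 121, 145, 141 and 122 CPM against 213, 174, 189, 178 and 192 CPM (log2 difference -0.50, standard error 0.072, edgeR adjusted p = 4.21e-04). The cyclin B gene cyb-3 averaged 48.2 ± 3.78 against 65.6 ± 5.86 CPM (SD, n = 5; log2 difference -0.44, edgeR adjusted p = 0.00115). Without sma-6 replicate 6 the list had 10 lower members.

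Homeobox genes encode transcription factors that set cell fates. Of 72 tested 0 were higher and 16 lower (22.2% against 11.4% of all genes; median -0.203), and 60 of the 72 had a negative difference. The calls included ceh-48 at 12.6 against 17.8 CPM (log2 difference -0.50, edgeR adjusted p = 0.00105) and ceh-32, a Six-family factor of the head, at 31 against 40.4 CPM (-0.38). Without sma-6 replicate 3 there were 10. The 212 nuclear hormone receptors tested had 9 higher and 12 lower, below the shares of all genes, and the 9 became 5 without sma-3 replicate 4 or sma-6 replicate 2 and 4 without sma-6 replicate 3. The list had 6 higher and 21 lower with library totals alone, and 14 higher and 10 lower with the length trend removed. Of 8 GATA factors of epidermis and intestine 0 were called.

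Heterochronic genes time the larval stages. lin-14, lin-28 and hbl-1, which specify early larval fates, were lower, and lin-29, which specifies adult epidermal fate, was higher, out of 10 tested. These were 30% lower and 10% higher, against 11.4% and 11.2% of all genes. The list median was 0.009, with 7 members above 0 and 3 below. The higher call was lost with library totals alone and in at least 1 fit without a library. lin-28 measured 35.5, 32.3, 27.6, 36.2 and 28.1 CPM in sma-6 mutants and 56.5, 41.3, 46.9, 41.4 and 44.8 CPM in sma-3 mutants (log2 difference -0.53, standard error 0.102, edgeR adjusted p = 0.00260). lin-14 averaged 123 ± 6.95 against 151 ± 3.68 CPM (SD, n = 5; log2 difference -0.29, edgeR adjusted p = 0.00181). N2 lay at 30.1 to 37.2 CPM of lin-28 in 4 libraries and at 43.0 CPM in replicate 5, so the Smad mutants were above the first 4. Of the 2 calls with less evidence, named to complete the count, hbl-1 differed by -0.42 and lin-29 by 0.32 on the log2 scale.

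Of 84 ligand-gated ion channel subunit genes, which serve fast signalling by transmitters, 12 were lower (14.3%) and 0 higher (median -0.111), against 11.4% and 11.2% of all genes. lgc-27 measured 121, 113, 126, 135 and 128 CPM against 200, 175, 184, 172 and 200 CPM (log2 difference -0.58, edgeR adjusted p = 7.77e-05), and acr-23, a betaine-gated channel subunit gene, averaged 4.37 against 8.36 CPM (-0.94). Among pan-neuronal markers 4 of 22 were lower (18.2%) and 0 higher, against the same 11.4% and 11.2%. The synaptotagmin gene snt-1 led them, at 68.2 against 82.5 CPM (log2 difference -0.27). The summed marker level overlapped, at 2099 to 2625 CPM in sma-6 and 2383 to 2750 CPM in sma-3 mutants. The marker count was 2 with the length trend removed, 7 without sma-6 replicate 4 and 2 without sma-3 replicate 4 or 5 or sma-6 replicate 2, 3 or 6. In bulk animals fewer cells of a type and less RNA per cell cannot be told apart.

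Peptide genes outside the antimicrobial families had 6 of 60 higher (10%) and 0 lower, against 11.2% and 11.4% of all genes. The higher share was thus near that of all genes. nlp-20 averaged 15.4 ± 1.21 against 8.03 ± 1.13 CPM (SD, n = 5; log2 difference 0.94, edgeR adjusted p = 6.34e-05). With the length trend removed this list turned to 2 higher and 5 lower, with library totals alone it had 2 higher and with the molting score 13 higher, and 2 or 3 were higher in the fits without sma-3 replicate 4 or 9 or sma-6 replicate 1, 2, 4 or 6. Of 22 insulin-like peptide genes 3 were higher (13.6%) and 1 lower (4.55%). The gene ins-33 averaged 25 ± 3.23 against 10.3 ± 2.5 CPM (SD, n = 5; log2 difference 1.28, edgeR adjusted p = 1.19e-04). The other calls, named to complete the count, were ins-4, ins-11 (1.14) and, lower, ins-30 (-0.77).

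Sarcomere genes were called about as often as all genes, with 4 of 36 higher (11.1%) and 6 lower (16.7%), or 3 lower without sma-6 replicate 2. ttn-1, which encodes a titin-like protein, was higher, at 477, 568, 462, 544 and 538 CPM against 384, 430, 366, 336 and 361 CPM (log2 difference 0.46, edgeR adjusted p = 0.00114), although it did not pass with the length trend removed. The calponin-related unc-87 was lower, at 968 ± 62.5 against 1238 ± 72.8 CPM (SD, n = 5; log2 difference -0.36, edgeR adjusted p = 0.00189). The laminin gene lam-3 measured 41.1, 34.9, 41.7, 37.7 and 37.5 CPM against 14, 20.3, 17.1, 18.2 and 19.8 CPM (log2 difference 1.11, edgeR adjusted p = 8.27e-06). It held 28.2 to 35.5 CPM in 4 N2 libraries and 16.1 CPM in replicate 5. In the basement membrane list 4 of 20 were higher and 5 lower, where the 4 became 2 with library totals alone or the length trend removed, and without sma-3 replicate 2, 4 or 5 or sma-6 replicate 1, 2 or 6. The 5 became 3 with the length trend removed, and without sma-3 replicate 2, 3 or 9 or sma-6 replicate 1, 4 or 6. The library-wise sums of the muscle list, 32350 to 37650 CPM and 31210 to 35490 CPM, overlapped.

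Called lipid genes were more often higher than lower in sma-6 mutants. Of 16 fatty acid and lipid binding protein genes 7 were higher (43.8%) and 0 lower, against 11.2% and 11.4% of all genes (median 0.278). With the length trend removed this list counted 5 higher and 1 lower. far-2, a secreted fatty acid and retinol binding protein gene, measured 434, 422, 610, 372 and 454 CPM against 229, 289, 233, 206 and 209 CPM (log2 difference 0.98, edgeR adjusted p = 1.95e-04), and the intracellular lbp-9 averaged 154 against 107 CPM (0.52). Lipase and beta-oxidation genes had 19 of 64 higher (29.7%) and 10 lower (15.6%), both above the shares of all genes (median 0.129). They were led by the acyl-CoA synthetase homolog acs-14, at 130 ± 4.81 against 95.8 ± 4.20 CPM (SD, n = 5, log2 difference 0.44). The acyl-CoA dehydrogenase homolog acdh-12 averaged 151 ± 12.4 against 109 ± 3.52 CPM (log2 difference 0.47).

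Among desaturases and elongases 3 of 14 were higher (21.4%) and 1 lower (7.14%), against 11.2% and 11.4% of all genes. The median was 0.005, with 7 members above 0 and 7 below. The palmitoyl desaturase gene fat-5 averaged 29.4 ± 3.11 against 20.3 ± 1.63 CPM (SD, n = 5; log2 difference 0.53, edgeR adjusted p = 8.84e-04), and fat-4, which makes long polyunsaturated fatty acids, 291 ± 10.2 against 234 ± 16.1 CPM (0.31). The remaining calls, named to complete the count, were elo-1, higher (0.28), and the stearoyl desaturase gene fat-7, lower, at 19.8 against 28.8 CPM (-0.54), where N2 averaged 65.5 CPM.

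Defence genes also divided by family. Caenacin and nlp antimicrobial peptide genes had 7 of 15 higher and 0 lower (median 0.383). After cnc-2 the leading member was nlp-31, a peptide of the epidermis induced by fungal infection, at 59.2, 57.3, 74.6, 58.4 and 67.4 CPM against 35.1, 41.7, 37.6, 42.4 and 29.9 CPM (log2 difference 0.76, edgeR adjusted p = 2.53e-04). These transcripts are short, and with the length trend removed the list counted 5 higher and 2 lower (median 0.116). Lysozymes, saposins and related genes had 7 of 35 higher (20%) and 2 lower (5.71%), against 11.2% and 11.4% of all genes. With the molting score 11 were higher. ilys-2 averaged 3.00 ± 0.773 against 1.05 ± 0.260 CPM and lys-6 1.93 ± 0.274 against 4.28 ± 0.663 CPM (SD, n = 5, log2 differences 1.5 and -1.14).

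C-type lectins, a large family with many pathogen-responsive members, leaned the other way, with 24 of 110 lower (21.8%) and 13 higher (11.8%). Against 11.4% and 11.2% of all genes only the lower share stood apart, and the list median was -0.075. clec-47 measured 17.4, 12.6, 11, 12.6 and 17.6 CPM against 34, 33.4, 34.9, 50.4 and 31.6 CPM (log2 difference -1.37, edgeR adjusted p = 7.67e-05). clec-150 was higher, at 89.1 ± 7.05 against 55.1 ± 5.09 CPM (SD, n = 5; log2 difference 0.69, edgeR adjusted p = 6.34e-05). The 13 became 7 without sma-3 replicate 4 or sma-6 replicate 2. CUB-like and related genes had 4 of 15 in each direction (26.7% each), with a median of 0.04. The neighbours F49F1.7 and F49F1.1 were high in receptor mutants alone, at 6.70 and 5.00 CPM against 1.90 and 1.86 CPM in Smad mutants and 2.03 and 1.83 CPM in N2 (log2 differences 1.82 and 1.42, edgeR adjusted p = 8.27e-06 and 6.72e-05). Aspartyl and cysteine proteases, enzymes of the gut lumen and lysosome, had 8 of 20 lower (40%) and 1 higher (5%). Among the lower members, asp-14 averaged 171 against 306 CPM and asp-6 1969 against 2878 CPM (log2 differences -0.84 and -0.55).

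Among detoxification genes, UDP-glucuronosyl and glutathione transferases had 23 of 101 higher (22.8%) and 5 lower (4.95%), with gst-20 at 51.6 ± 1.70 against 33.8 ± 4.50 CPM (SD, n = 5; log2 difference 0.61, edgeR adjusted p = 3.41e-04). The 5 became 9 without sma-3 replicate 2. Cytochrome P450 genes had 10 of 67 higher (14.9%) and 6 lower (8.96%), near the 11.2% and 11.4% of all genes, with cyp-13A2 at 85.5 ± 3.09 against 47.8 ± 7.23 CPM (SD, n = 5; log2 difference 0.84, edgeR adjusted p = 5.43e-05), and the 6 became 2 and 3 without sma-6 replicates 2 and 3. F-box genes (5 higher and 9 lower of 113), MATH and BATH domain genes (2 and 5 of 51) and transthyretin-related genes (4 and 3 of 44) had smaller shares of calls than the 22.6% of all genes. With the length trend removed the transthyretin-related list turned to 0 higher and 6 lower, and with the molting score it had 9 higher and 4 lower. The 9 F-box genes became 4 or 5 without sma-3 replicate 5 or sma-6 replicate 2, 3 or 6, and the 5 MATH and BATH genes 3 without sma-3 replicate 9 or sma-6 replicate 2 or 3. Histone genes had 3 higher and 5 lower of 31, a poly-A library being a poor measure of them. Where a list had 0 calls in a direction, DESeq2 and limma-voom also called 0, except for 1 pan-neuronal marker called higher by DESeq2 and 1 epidermal marker by both, and an unadjusted p under 0.05 was reached by at most 4 members (neuropeptides lower).

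A run of neighbouring genes on chromosome IV was higher in sma-6 mutants whatever their function. It extended from F35G2.1 to ufd-1, bases 12203249 to 12330890 of WBcel235 (127.6 kb), and was found after the data had been seen as the longest run with a running median over 11 genes of at least 0.5. That rule chose it on these differences, so its values are a description. Of its 22 tested genes 21 were called higher and 0 lower, and in 17 the libraries did not overlap. The log2 differences ran from 0.41 to 1.43 with a median of 1.02. Against N2 the medians were 0.997 in sma-6 and -0.056 in sma-3 mutants, so the receptor mutants were the ones that stood away.

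phy-2, a subunit of the collagen prolyl 4-hydroxylase, measured 204, 199, 256, 172 and 198 CPM in sma-6 mutants against 98.4, 83.8, 95.2, 75.5 and 97.1 CPM in sma-3 mutants, with N2 at 96.0 to 100 CPM (log2 difference 1.19, standard error 0.102). rpl-34 of the large ribosomal subunit measured 1907, 1878, 1726, 1801 and 1747 CPM against 860, 871, 730, 737 and 605 CPM, with N2 at 886 to 1058 CPM (log2 difference 1.25). ufd-1, a cofactor of the segregase CDC-48, averaged 111 ± 3.57 against 53.4 CPM (log2 difference 1.05), and tag-335 125 ± 3.83 against 59.9 CPM (1.06; SD, n = 5). The size was not uniform, since of the O-acyltransferase homologs in the run oac-57 differed by 1.03, oac-58 by 0.60 and oac-59 by 0.44 on the log2 scale.

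Just beyond the end of the run F19B6.1 also differed by 1.09, and the next gene, best-22, by -0.17 and was not called. On the other side nlr-1, starting 32.4 kb before the first gene of the run, differed by 0.62 and F20B10.3 by 0.03. Of the O-acyltransferase list 6 of 24 were higher and 5 lower, and outside the run 3 of 21 were higher and 5 lower. The 6 became 3 without sma-3 replicate 9 or sma-6 replicate 2 or 6. The DNA of the strains was not analysed here, and the cause of the run was not tested.

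**Figure D5:**
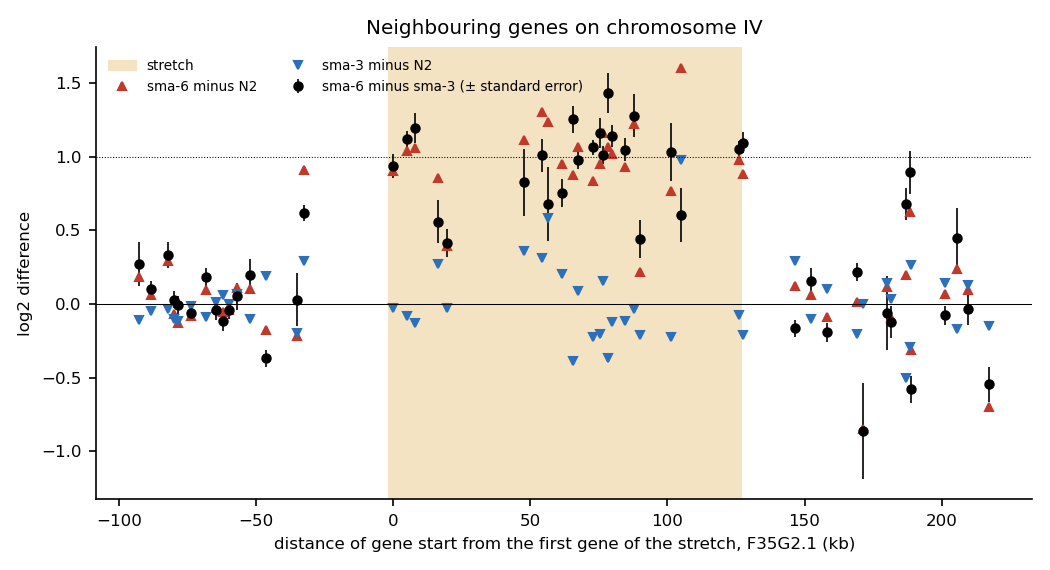
Each gene is placed at the distance of its start from that of F35G2.1 (kb, horizontal), with its log2 difference between the mutants and its standard error (black) and the difference of each mutant from N2 (red and blue triangles). In the shaded run black points and red triangles lie near 1 for most genes and blue triangles near 0 for most genes.

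Along the genome, calls were spread over all chromosomes. On the X chromosome 145 of 2083 genes were higher (6.96%) and 309 lower (14.8%), with a median of -0.066. On the autosomes the higher share ran from 10.8% to 13.4% and the lower share from 8.43% to 12.1%. A strain can carry linked differences near a mutated gene. Within 1 Mb, 61 of 333 genes (18.3%) were called around sma-3 and 86 of 388 (22.2%) around sma-6. Within 2 Mb these were 149 of 744 (20%) and 167 of 727 (23%), against 22.6% of all genes. Among the 10 largest differences each way, C30B5.6 (start 6219516) and ins-4 (start 5996366) lie within 1 Mb of sma-6 on chromosome II. wrt-1 (start 7530996) lies beyond 1 Mb but within 2 Mb. Whether linked differences contributed at single genes was not tested.

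The level in N2 showed to which mutant the wild type lay nearer. Of the 3058 called genes the N2 mean was nearer to sma-6 in 1824 (59.6%) and nearer to sma-3 in 1234 (40.4%). Without N2 replicate 5 these became 2155 (70.5%) and 903 (29.5%), so the balance rested in part on that library. The N2 mean lay between the mutant means in 2357 of the called genes and outside them in 701. With N2 replicate 5 left out these counts were 2087 and 971. In the homeobox list the N2 mean was nearer to sma-6 in 9 of 16 called genes with all N2 libraries and in 13 without replicate 5. In the cuticle collagens it was nearer to sma-3 in 34 of 52, and in 24 without replicate 5.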

How the data were processed

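Poly-A RNA of whole L2 larvae was sequenced in 5 libraries per genotype, and groups and replicate numbers came from the titles. The title of sma-3 replicate 9 carries the suffix rep, whose meaning is not given. Whole-number counts of 16259 genes in every library were deposited by the authors in a single table. STAR 2.5.2b, featureCounts 1.5.2, limma and the build WBcel235 are named in the submitters' processing notes, with roles and settings not given in the sources used here. The deposited CPM equalled count over library total to within 5e-04. The authors' deposited log2 fold changes, p-values and false discovery rates concern another comparison and were not used.

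Counts were analysed in R 4.3.3 with edgeR 4.0.16: TMM factors, filterByExpr (minimum count 10, minimum total 15), a quasi-likelihood fit to the 10 mutant libraries with genotype alone, and Benjamini-Hochberg adjustment over the 13557 genes tested at 0.05. Standard errors came from the quasi-likelihood F statistic. The fit was tested on simulated data. Reads carried no molecular identifiers, so depth bounds counting error alone. Positions came from the WBcel235 annotation for 16068 genes (98.8%).

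The members and function lists were chosen with earlier results of these data known. Genes named were both mutated genes, called DBL-1 pathway genes, the 10 largest differences each way (genotypes not overlapping, average log2 CPM 1 or above, called), and the 2 called members with the smallest p of each list with at least 3. Other genes named were chosen after their values were seen. Alternatives covered RLE factors, library totals, other count filters, DESeq2 1.42.0, limma-voom (limma 3.58.1), all 15 libraries, a 1.2-fold minimum, a molting score, an exon length trend, a replicate block, and omission of each library. Counts of lists under each fit, and lists without the chromosome IV run, were chosen after seeing the data. Reads shared by near-identical members of a family are assigned with uncertainty.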

Additional observations from a re-analysis of the deposited data

Results flagged for a closer look

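Each named gene was examined for a single library far from the other 4 of its genotype, by the gap to the nearest library relative to the range. Among 210 groups of 5 libraries, for 105 genes, 10 were flagged, and chance flags about 1 in 20 groups. lips-11 was at 56.4 CPM in sma-6 replicate 1 against 13.8 to 21.8 CPM in the others, and oac-34 in the same library at 3.76 against 1.90 to 2.32 CPM. lon-1 was at 228 CPM in sma-3 replicate 2 against 186 to 195 CPM. In sma-6 replicate 3, bli-3 was low at 68.7 against 74.7 to 75.3 CPM, and acs-14 high at 138 against 126 to 130 CPM. F49F1.1 was low in sma-6 replicate 4, at 4.02 against 4.97 to 5.35 CPM.

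In sma-3 replicate 5, clec-47 was at 50.4 against 31.6 to 34.9 CPM and nlp-20 at 10 against 7.25 to 7.69 CPM. In sma-3 replicate 9, nlp-17 was at 7.55 against 11.6 to 12.7 CPM and oac-30 at 18.6 against 14 to 15.3 CPM. Of these genes only the lon-1 call was lost without the flagged library. No cause was tested for any of them.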

How the results depend on the processing

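The counts of 1515 higher and 1543 lower genes stayed within 1.5 times under RLE factors, library totals, other count filters, DESeq2, limma-voom, all 15 libraries, a molting score, a length trend and the omission of each library (higher 1114 to 1674, lower 1134 to 1727). A 1.2-fold minimum left 321 and 336. Same-numbered libraries 2, 3 and 4 did not deviate together (r = -0.06, -0.113 and -0.085), and a replicate block over them gave 322 and 299 calls, against 623 and 637 for the same libraries without it. Of the 105 named genes 66 kept their call in every setting in which they were tested, and 0 reversed. Of these, nspc-10 and fbxa-192 were not tested with a minimum count of 30.

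List medians that moved by more than the spread between libraries were these. With library totals alone they were -0.064 for the DBL-1 pathway, -0.025 for cuticle enzymes, -0.425 for hedgehog-related genes, 0.141 for the vacuolar ATPase, -0.084 for nuclear hormone receptors and 0.026 for UDP-glucuronosyl and glutathione transferases. With the length trend removed they were 0.065 for heterochronic genes, 0.18 for lipid binding, 0.116 for antimicrobial peptides, 0.115 for the cytosolic ribosome, 0.124 for the vacuolar ATPase, -0.035 for insulins, 0.039 for the transferases and -0.035 for histones. Without 1 library the medians ranged from -0.04 to 0.026 for the DBL-1 pathway, -0.048 to 0.064 for the dauer pathway, -0.004 to 0.092 for cuticle enzymes, -1.435 to 0.265 for vitellogenins, -0.155 to 0.144 for CUB-like genes, 0.04 to 0.08 for the transferases and -0.12 to 0.053 for O-acyltransferases. Called genes with N2 nearer to sma-6 were 70.5% without N2 replicate 5. The causes were not tested. Depth limits genes near 0.121 to 0.179 CPM, the level of 3 counts.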
